A study of Mus musculus with 11 samples.

Results

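The apical-basal polarity genes described here were 10 genes named by symbol: Pard3, Pard6b, Prkci, Prkcz, Crb3, Llgl1, Llgl2, Scrib, Dlg1 and Numb. They were 10 of the 27179 genes counted in 11 RNA-seq libraries of mouse mammary epithelium, they were picked by name with no threshold on a measured value, and all 10 passed the filter on low counts. The choice was made with earlier results of these data known. Mammary glands of 5-week-old C57BL/6 mice expressing E-cadherin-GFP, an age of pubertal growth, were microdissected into terminal end buds (TEBs), the bulbous tips from which the ductal tree elongates, and the ducts behind them. Lineage-negative CD29+CD24+ cells of each structure were sorted into luminal cells, with high E-cadherin-GFP, and basal cells, with low E-cadherin-GFP. All groups carried the same reporter and none was treated. Basal ducts, basal TEBs and luminal TEBs had 3 libraries each and luminal ducts had 2, numbered 1 and 3, since a luminal duct sample was discarded by the study for low cell numbers, and each library pooled at least 2 mice. The design compares the 2 lineages within each structure and the 2 structures within each lineage.

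Polarised epithelial cells separate an apical surface, facing the lumen, from a basolateral surface through 3 groups of proteins that oppose each other. The Crumbs protein CRB3 and the PAR complex, in which the scaffold PAR3, the adaptor PAR6 and an atypical protein kinase C (aPKC) assemble, act on the apical side and at the junctions. Scribble, DLG and LGL proteins define the basolateral side, and aPKC phosphorylates LGL and the endocytic adaptor NUMB, an inhibitor of Notch. In the mammary gland luminal cells line the lumen, whereas basal cells lie on the basement membrane with no lumen of their own.

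Promoters are shown for the 3 members with the lowest share of their luminal level in basal TEBs among those that had an entry, Crb3, Pard6b and Prkcz, and for Pard3, which lay the other way. Sequences are from RefSeq (GRCm38.p6), 250 bases before to 50 after an annotated start, and entries were found for 8 of the 10 members, 17 in all, the exceptions being Llgl2 and Scrib. Capitals mark each match to CAGGTG or its reverse complement CACCTG, the E-box letters recognised by transcription factors of the ZEB and SNAI families. The promoters lie at chr17:57061951-57062250 (plus strand, Crb3), chr2:168080754-168081053 (plus strand, Pard6b), chr4:155361379-155361678 (minus strand, Prkcz) and chr8:127063806-127064105 (plus strand, Pard3).
Crb3: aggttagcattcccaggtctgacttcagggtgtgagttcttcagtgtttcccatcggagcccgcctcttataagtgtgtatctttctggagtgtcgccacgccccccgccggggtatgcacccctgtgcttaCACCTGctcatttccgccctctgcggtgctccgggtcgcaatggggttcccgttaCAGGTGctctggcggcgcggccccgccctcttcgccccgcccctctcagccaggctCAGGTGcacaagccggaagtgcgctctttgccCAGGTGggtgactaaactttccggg
Pard6b: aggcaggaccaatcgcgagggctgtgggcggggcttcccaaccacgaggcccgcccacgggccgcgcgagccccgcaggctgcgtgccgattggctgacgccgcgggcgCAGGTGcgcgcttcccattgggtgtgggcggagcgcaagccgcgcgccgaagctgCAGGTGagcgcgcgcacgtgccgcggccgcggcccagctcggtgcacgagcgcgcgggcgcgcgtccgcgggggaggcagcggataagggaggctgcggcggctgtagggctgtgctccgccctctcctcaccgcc
Prkcz: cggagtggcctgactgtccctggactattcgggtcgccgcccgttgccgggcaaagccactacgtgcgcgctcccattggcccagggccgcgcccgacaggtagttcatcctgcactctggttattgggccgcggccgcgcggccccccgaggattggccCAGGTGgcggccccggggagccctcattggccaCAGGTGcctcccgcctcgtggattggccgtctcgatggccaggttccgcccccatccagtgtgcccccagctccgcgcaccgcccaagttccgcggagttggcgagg
Pard3: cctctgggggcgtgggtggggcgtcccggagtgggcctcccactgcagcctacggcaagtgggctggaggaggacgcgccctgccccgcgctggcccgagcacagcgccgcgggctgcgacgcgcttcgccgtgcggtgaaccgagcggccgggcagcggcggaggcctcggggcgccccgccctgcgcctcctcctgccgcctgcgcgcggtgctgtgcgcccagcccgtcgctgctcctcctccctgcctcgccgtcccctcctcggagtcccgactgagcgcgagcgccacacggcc

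The Crb3 promoter held 4 matches, whose first bases lay 118, 63 and 7 bases before and 25 bases after the start, and the second annotated start of Crb3 has an overlapping promoter with the same 4. Pard6b held 2 matches, 141 and 86 bases before the start, and the most upstream Prkcz promoter held 2, at 90 and 57 bases before it. The upstream Pard3 promoter held none, although a promoter inside that gene held 3. At least 1 match stood in 8 of the 17 member promoters, belonging to 6 members, against 20.2% of the 32851 promoters and 22.6% of the 27025 genes in the whole table, where 2.88% held at least 2 matches and 0.0548% at least 4. The overlapping Crb3 promoters count as 2 of these 8. A gene with several promoters has more chances of a match, and members had more promoters per gene than the whole table. The Prkci and Llgl1 promoters and most promoters of Numb and Dlg1 held 0 matches. The letters AACCGGTT, a grainyhead-like site that cannot overlap these matches, stood in 0 of the 17 and in 0.146% of all promoters. A match describes letters in this window and is no evidence of binding, and several starts of Prkcz, Pard3, Numb and Dlg1 were summed into 1 count per gene by the authors.

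Libraries held 27989137 to 49221436 counts, and 17370 genes were tested. Mitochondrial genes took 4.34% to 10.9% of the counts in 8 libraries, but 37.5% in basal TEB 1, 17.8% in basal TEB 3 and 28.5% in luminal duct 3. The sort was checked against marker lists: 6 basal markers summed to 5241 to 18419 CPM (read counts scaled to a common library size with the trimmed mean of M-values, TMM) in basal libraries and to 13.1 to 222 CPM in luminal ones, and 8 luminal markers summed to 11452 to 18652 CPM in luminal libraries and to 263 to 530.4 CPM in basal ones. No basal or luminal marker was at 0 in a whole group. Fibroblast markers (6 genes, none at 0 in a group) summed to 226 to 840 CPM in basal libraries and to 6.03 to 249.8 CPM in luminal ones, and their part in the lineage differences was not tested. The highest immune sum (5 genes) was 173 CPM, in a luminal duct library, and the highest endothelial sum (3 genes) 146 CPM, in a basal duct library. In bulk libraries of this kind fewer cells of a type and less RNA per cell cannot be told apart.

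Most of these genes differed between the lineages in each structure. In ducts, 3 members were higher in basal than in luminal cells (Pard3, Scrib and Llgl1), 4 were lower (Crb3, Llgl2, Prkcz and Dlg1) and 3 did not pass (edgeR's quasi-likelihood test, Benjamini-Hochberg adjusted p below 0.05), where 22.3% of all genes tested were called, 12.6% higher and 9.71% lower. In TEBs, 2 were higher in basal cells (Pard3 and Scrib), 7 were lower (Crb3, Pard6b, Llgl2, Prkcz, Numb, Dlg1 and Prkci) and 1, Llgl1, did not pass, against 25.1% of all genes, 13.2% higher and 11.8% lower. With no composition normalization the TEB calls became 0 higher and 7 lower, and those over all genes moved from 2298 higher and 2056 lower to 1380 higher and 2332 lower. With basal TEB 1 and luminal duct 3, the libraries of highest mitochondrial share, left out together, no lineage difference of a member changed direction. Luminal ducts then kept 1 library, so calls of that fit are not counted here. The median log2 fold change of the 10 members was -1.07 in ducts and -1.05 in TEBs, beside 0.08 and 0.04 over all genes, and their median absolute change was 1.38 and 1.08, beside 0.92 and 0.87. Basal and luminal libraries did not overlap for 9 members in ducts, 3 higher and 6 lower, and for 9 in TEBs, 2 higher and 7 lower, where 46% of all genes tested (24.8% higher and 21.2% lower) and 49.8% (22.6% higher and 27.2% lower) did not overlap. Called in each structure were Pard3 and Scrib, higher in basal cells, and Crb3, Dlg1, Llgl2 and Prkcz, lower. The share of all genes called in both structures was not counted, so this list is a description only.

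**Figure D1:**
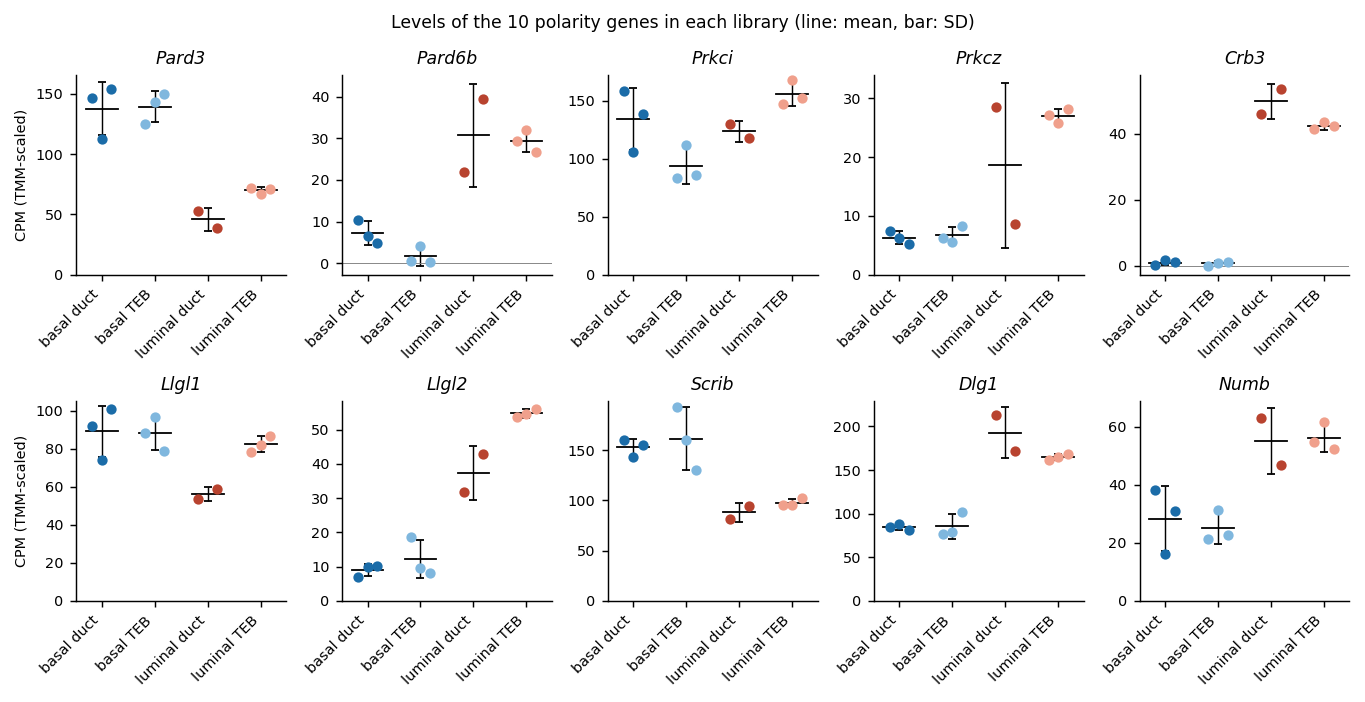
TMM-scaled CPM (y axis, 1 panel per gene, each with its own scale from 0) of the 10 polarity genes in every library of the 4 groups (x axis); points are libraries, lines group means and bars SD (3 libraries per group, 2 in luminal ducts). Crb3 is at 41.4 to 53.7 CPM in luminal libraries and at 0 to 1.55 CPM in basal ones, while Pard3 lies at 113 CPM or above in every basal library and at 71.8 CPM or below in every luminal one.

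Crb3 (Entrez gene 224912, chr17:57062201-57065918), which encodes a small transmembrane protein of the apical membrane, showed the widest difference. It was at 46.2 and 53.7 CPM in luminal ducts and 41.4, 43.6 and 42.3 CPM in luminal TEBs, against 0.0599, 1.55 and 1.10 CPM in basal ducts and 0, 0.653 and 1.20 CPM in basal TEBs. Every luminal library lay far above every basal library. The 0 of basal TEB 1 allows a level of up to 0.173 CPM (3 counts, for counting error alone). Basal against luminal, Crb3 had a log2 fold change of -5.80 ± 1.03 (SE) in ducts (edgeR adjusted p = 0.00157) and -6.00 ± 1.02 in TEBs (edgeR adjusted p = 0.000956), and the call held under all 22 alternative settings in each. It was -6.46 in ducts without basal duct 2 and -6.76 in TEBs without basal TEB 3. The basal mean of Crb3 was 1.81% of the luminal mean in ducts and 1.46% in TEBs, and the 8 luminal markers were at a median of 1.74% (0.184% to 7.10%) and 1.67% (0.318% to 6.94%) in the same libraries. The part of luminal cells or luminal RNA in the basal level of Crb3 was not tested. Its exons share 14 bases with Dennd1c on the other strand in GENCODE M21, and the kit does not tell the strands apart.

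Pard6b (Entrez gene 58220, chr2:168081004-168101203) encodes the adaptor through which CDC42 meets aPKC. It was at 10.3, 6.55 and 4.77 CPM in basal ducts, 0.404, 4.13 and 0.280 CPM in basal TEBs, 21.9 and 39.5 CPM in luminal ducts and 29.3, 32.1 and 26.8 CPM in luminal TEBs. All luminal libraries were above all basal ones, and all 3 basal TEBs were below all 3 basal ducts. Basal against luminal, its log2 fold change passed the test in TEBs (-4.15 ± 0.86, edgeR adjusted p = 0.00370, and -6.48 without basal TEB 2) and not in ducts (-2.09 ± 0.84, edgeR adjusted p = 0.0974), where 5 of 22 alternatives called it, the fit without basal TEB 2 among them (-2.09, edgeR adjusted p = 0.00426). Basal TEBs 1 and 3, at 7 and 10 counts, held the lowest levels and also the highest mitochondrial shares among basal TEBs, whose part in this result was not tested.

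The kinases of the PAR complex differed in how evenly they were shared. Prkci, coding for aPKC iota (Entrez gene 18759, chr3:30995742-31052740), was at 159, 106 and 139 CPM in basal ducts, 83.4, 112 and 85.9 CPM in basal TEBs, 130.4 and 118 CPM in luminal ducts and 147, 168 and 153 CPM in luminal TEBs. Groups overlapped in ducts (log2 fold change 0.12, 95% interval -0.34 to 0.57, edgeR adjusted p = 0.732), whereas in TEBs every basal library was lower (-0.73 ± 0.19, edgeR adjusted p = 0.0123). The TEB call was lost without basal TEB 3 (adjusted p = 0.0502) and without luminal TEB 2 (adjusted p = 0.0557). Prkcz, coding for aPKC zeta (Entrez gene 18762, chr4:155260118-155361428), was at 7.36, 6.29 and 5.18 CPM in basal ducts, 6.29, 5.56 and 8.29 CPM in basal TEBs, 28.5 and 8.68 CPM in luminal ducts and 27.1, 25.7 and 28.2 CPM in luminal TEBs. Luminal duct 3 lay close to the basal libraries and the other luminal libraries lay well above them. The log2 fold change of Prkcz was -2.01 ± 0.44 in TEBs (edgeR adjusted p = 0.00500) and -1.57 ± 0.47 in ducts (edgeR adjusted p = 0.0308). The duct call rested on luminal duct 1, without which it was -0.47 (adjusted p = 0.479), against -2.18 without luminal duct 3, and it held in 12 of 22 alternatives. It was also lost, at edgeR adjusted p of 0.0543 to 0.0914, when any of the 3 basal ducts or any of the 3 luminal TEBs was left out.

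Pard3 (Entrez gene 93742, chr8:127063381-127612286), the scaffold that recruits the complex to junctions, went the other way. It was at 147, 113 and 154 CPM in basal ducts, 125, 143 and 149.6 CPM in basal TEBs, 52.6 and 38.9 CPM in luminal ducts and 71.8, 66.7 and 71.0 CPM in luminal TEBs. The lowest basal library was above the highest luminal library. Its log2 fold change was 1.59 ± 0.21 in ducts (edgeR adjusted p = 0.000175) and 1.00 ± 0.18 in TEBs (edgeR adjusted p = 0.00127). Only the setting with no composition normalization ended the TEB call (0.60, adjusted p = 0.198).

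Among basolateral genes, the LGL paralogs differed in pattern. Llgl1 (Entrez gene 16897, chr11:60699672-60714186) was at 92.1, 74.2 and 101 CPM in basal ducts, 88.4, 96.7 and 79.0 CPM in basal TEBs, 53.6 and 58.6 CPM in luminal ducts and 78.3, 82.2 and 86.9 CPM in luminal TEBs. The luminal duct libraries were the lowest of the 11, and TEB groups overlapped. Its log2 fold change was 0.67 ± 0.19 in ducts (edgeR adjusted p = 0.0233) and 0.09 in TEBs (95% interval -0.26 to 0.45, edgeR adjusted p = 0.727). The duct call held in 15 of 22 alternatives and was lost without luminal duct 1 (adjusted p = 0.0927), luminal duct 3 (0.0539), basal duct 1 (0.0628) or basal duct 3 (0.0731), and 64 exonic bases are shared with Flii on the other strand in GENCODE M21. Llgl2 (Entrez gene 217325, chr11:115824029-115855780) was at 6.90, 9.89 and 10.3 CPM in basal ducts, 18.5, 9.60 and 8.26 CPM in basal TEBs, 31.7 and 43.0 CPM in luminal ducts and 53.6, 54.7 and 55.9 CPM in luminal TEBs. Every luminal library was above every basal one. The log2 fold change of Llgl2 was -2.05 ± 0.35 in ducts (edgeR adjusted p = 0.00117) and -2.18 ± 0.33 in TEBs (edgeR adjusted p = 0.000392), called in all 22 alternatives in each. Its basal mean was 24.2% of the luminal mean in ducts and 22.2% in TEBs, above the highest share of any of the 8 luminal markers. This was not particular to Llgl2: the shares in ducts and TEBs were 33.8% and 24.9% for Prkcz, 43.9% and 52.0% for Dlg1 and 51.5% and 44.7% for Numb. Pard6b was above the markers in ducts (23.4%) and not in TEBs (5.45%). The general epithelial genes Epcam (19.1% and 21.9%) and Cdh1 (35.7% and 18.7%) lay in a like range.

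The scaffolds Scrib and Dlg1, whose proteins act together on the basolateral side, lay in opposite directions. Scrib (Entrez gene 105782, chr15:76047162-76069784) was at 159.5, 143 and 155 CPM in basal ducts, 193, 160.3 and 130.4 CPM in basal TEBs, 81.5 and 94.8 CPM in luminal ducts and 95.6, 95.1 and 102 CPM in luminal TEBs. All basal libraries were above all luminal ones, with log2 fold changes of 0.79 ± 0.19 in ducts (edgeR adjusted p = 0.0103) and 0.72 ± 0.17 in TEBs (edgeR adjusted p = 0.00711). The duct call was lost without luminal duct 1 (0.69, adjusted p = 0.0606) and the TEB call with no composition normalization (0.28, adjusted p = 0.450). Dlg1 (Entrez gene 13383, chr16:31663443-31873356) was at 84.8, 88.3 and 81.0 CPM in basal ducts, 76.2, 78.9 and 102 CPM in basal TEBs, 213 and 172 CPM in luminal ducts and 161, 165 and 168 CPM in luminal TEBs. All luminal libraries were above all basal ones. The log2 fold change of Dlg1 was -1.19 ± 0.18 in ducts (edgeR adjusted p = 0.000435) and -0.94 ± 0.16 in TEBs (edgeR adjusted p = 0.000973), and all 22 alternatives called it in each structure.

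Numb (Entrez gene 18222, chr12:83794034-83921942) was at 38.0, 16.1 and 30.8 CPM in basal ducts, 21.2, 31.4 and 22.7 CPM in basal TEBs, 63.0 and 46.9 CPM in luminal ducts and 54.6, 61.6 and 52.2 CPM in luminal TEBs. Luminal libraries were above basal ones throughout. Its log2 fold change was -1.16 ± 0.30 in TEBs (edgeR adjusted p = 0.0135) and -0.96 ± 0.33 in ducts, which did not pass (edgeR adjusted p = 0.0550). Leaving out basal TEB 3 (adjusted p = 0.0531) or luminal TEB 2 (adjusted p = 0.0518) ended the TEB call, and 5 of 22 alternatives called the duct difference, which without basal duct 1 was -1.22 (edgeR adjusted p = 0.0333).

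**Figure D2:**
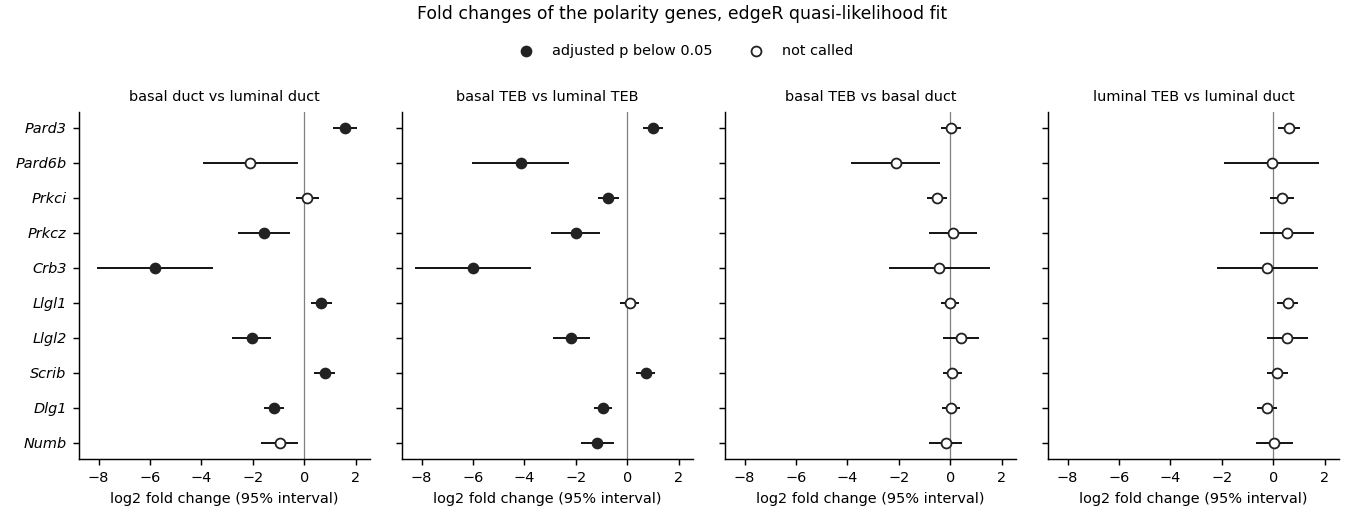
Log2 fold change (x axis) of each polarity gene (y axis) in 4 comparisons, 1 panel each, with its 95% interval as a line; filled points have an adjusted p below 0.05 in edgeR's quasi-likelihood test and open points do not. Filled points stand at 7 genes for ducts and 9 for TEBs in the lineage comparisons, and at 0 in the comparisons of TEBs with ducts.

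Between TEBs and ducts no member passed the test in either lineage. In basal cells 0 of 10 members were called by edgeR's quasi-likelihood test, where 1.32% of all genes were (0.167% higher and 1.16% lower). An unadjusted p below 0.05 was found for 2 members, where 14.5% of all genes had one, and DESeq2 and limma did not call them. These were Pard6b, at -2.12 (95% interval -3.86 to -0.38, edgeR adjusted p = 0.259), and Prkci, at -0.52 (-0.92 to -0.11, edgeR adjusted p = 0.234). Pard6b was also the member whose basal TEB and basal duct libraries did not overlap, against 20.8% of all genes (8.88% higher and 11.9% lower). Without basal TEB 2, the library at 4.13 CPM, the change of Pard6b was -4.47 and passed (edgeR adjusted p = 0.00339). Of the 9 other members, 6 had intervals within 1 log2 unit of 0, namely Pard3 (-0.37 to 0.40), Prkci, Llgl1 (-0.38 to 0.34), Scrib (-0.28 to 0.44), Dlg1 (-0.33 to 0.37) and Numb (-0.82 to 0.47). Intervals for Crb3 (-2.39 to 1.53), Prkcz (-0.83 to 1.02) and Llgl2 (-0.28 to 1.11) left room for larger changes.

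In luminal cells 0 of 10 members were called, beside 1.41% of all genes (0.639% higher and 0.771% lower). Again 2 had an unadjusted p below 0.05, beside 16.6% of all genes, with no call by DESeq2 or limma. Pard3 was higher in TEBs by 0.61 (95% interval 0.17 to 1.04, edgeR adjusted p = 0.156) and Llgl1 by 0.56 (0.15 to 0.96, edgeR adjusted p = 0.162), the luminal TEBs lying above both luminal ducts for each. Groups of luminal libraries did not overlap for 7 members, 5 higher and 2 lower in TEBs, where 43.7% of all genes did not overlap with only 2 duct libraries (26.2% higher and 17.4% lower). The other 3 higher ones were Prkci (0.33), Llgl2 (0.55) and Scrib (0.15), and the 2 lower were Crb3 (-0.23) and Dlg1 (-0.23), which turned to 0.16 and 0.14 with no composition normalization. The median change of the members was 0.24, beside 0.04 over all genes, and with no composition normalization the median over all genes moved to 0.42, so that small differences here depend on the scaling. The test of whether the TEB change differed between lineages called 0 of 10 members, beside 0.443% of all genes (0.0806% higher and 0.363% lower). An unadjusted p below 0.05 was found for 3 members, beside 14.7% of all genes, with no call by DESeq2 or limma: Prkci (-0.85, edgeR adjusted p = 0.204), Llgl1 (-0.57, 0.310) and Pard3 (-0.59, 0.327). Without basal TEB 2 the test of the difference between lineages called Pard6b (-4.39, edgeR adjusted p = 0.0143).

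Scaled by exon length (RPKM, the CPM divided by the exon length in kilobases), the order of the members differed between the lineages. In luminal ducts Crb3 had the highest mean level (43.1 ± 4.60 RPKM, SD, n = 2), followed by Dlg1 (34.7 ± 5.21), Numb (28.0 ± 5.80) and Prkci (27.8 ± 2.02). Neighbours among these 4 lay within their spread of each other, and Prkcz was lowest at 4.05 ± 3.05. In luminal TEBs the highest were Crb3 (36.6 ± 0.971, n = 3) and Prkci (35.0 ± 2.44), within their spread of each other, and the lowest was Prkcz (5.88 ± 0.267). In basal ducts Prkci (30.1 ± 5.97, n = 3) and Scrib (27.5 ± 1.52) were highest and within their spread, and Crb3 was lowest at 0.780 ± 0.660. In basal TEBs Scrib was highest (29.1 ± 5.66, n = 3) and Pard6b (0.472 ± 0.643) and Crb3 (0.534 ± 0.520) were lowest. Per length, 4 members stayed at or below 3.36 RPKM in both basal groups: Llgl2, Pard6b, Prkcz and Crb3.

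Ratios between paired genes within a library do not depend on library scaling, apart from a pseudocount of 2 counts per gene, which weighs most where counts are few. All genes paired were members except Numbl. The 5 ratios were tested, basal against luminal, with labels permuted within ducts and within TEBs. Each gave p = 0.005 in an exact two-sided permutation test, the smallest of its 200 arrangements, also after Benjamini-Hochberg adjustment over the 5. For Pard6b to Pard3, Dlg1 to Scrib and Numb to Numbl this outcome was fixed by the levels of the single genes. In those pairs both genes separated the lineages without overlap, in opposite directions, in each structure. The ratios therefore restate the same counts and are no separate support for the lineage differences. The log2 ratio was lower in basal cells by 4.85 for Pard6b to Pard3 (mean ratio 0.119 in basal ducts and 0.0153 in basal TEBs, against 1.54 and 0.992 in luminal cells). Pard6b lay at 0.891 to 1.13 times the level of Pard3 per length in 4 of the 5 luminal libraries and at 2.39 times in luminal duct 3, against 0.166 times or less in the 6 basal ones. For Llgl2 to Llgl1 the log2 difference was -2.53, from 0.124 and 0.159 in basal ducts and TEBs to 0.807 and 0.813 in luminal ones. For Dlg1 to Scrib it was -1.82, so that Dlg1 stood below Scrib in all 6 basal libraries and above it in all 5 luminal ones. The ratio of Prkci to Prkcz was higher in basal cells by 1.35, with means of 21.8 and 14.3 in basal ducts and TEBs and of 8.06 and 5.94 in luminal ones, although luminal duct 3 at 13.8 lay above basal TEBs 1 (13.4) and 3 (10.6). Numb to its paralog Numbl differed by -2.85, with luminal means of 5.37 and 9.07 against basal means of 0.789 and 1.18.

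**Figure D3:**
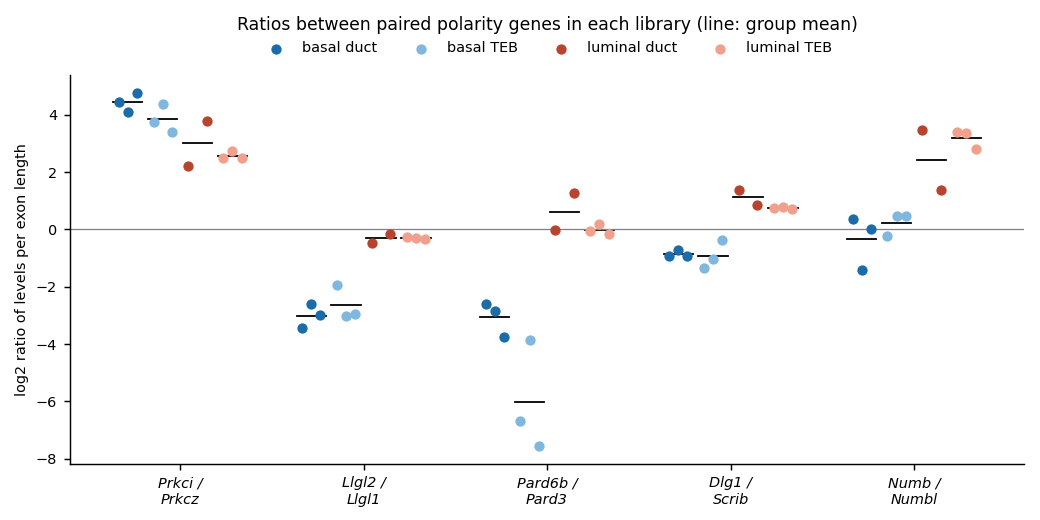
Log2 ratio of levels per exon length (y axis, pseudocount 2 counts) for 5 pairs of polarity genes (x axis) in every library, coloured by group, with lines at group means. Basal and luminal libraries separate without overlap within each structure in all 5 pairs, and the lowest points are basal TEBs 1 and 3 for Pard6b to Pard3.

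The other genes of the pathway were taken as a list of 29 (further PAR, Crumbs, DLG, NUMB and MARK family genes and regulators of the complexes), of which 27 were tested and Crb1 and Lrrc7 were not. In ducts 5 of the 27 were higher in basal cells and 3 lower, where 12.6% and 9.71% of all genes were, and in TEBs 5 were higher and 7 lower, where 13.2% and 11.8% were. Between TEBs and ducts edgeR called 0 in basal cells, 0 in luminal cells and 0 in the interaction, against 1.32%, 1.41% and 0.443% of all genes. An unadjusted p below 0.05 was found for 5, 6 and 3 of the 27, and for 14.5%, 16.6% and 14.7% of all genes. Their median log2 fold change was 0.59 in ducts and -0.0032 in TEBs. The genes called higher in basal cells in each structure were Pard6g (4.60 in ducts and 4.61 in TEBs), a PAR6 paralog; Mark1 (6.83 and 6.48), a kinase of the PAR1 family; Tiam1 (2.67 and 2.37), a RAC activator; Gpsm2 (2.60 and 1.56), which orients the spindle; and Numbl (1.54 and 1.77). Lower in each were Dlg3 (-1.37 and -0.81), Mark2 (-1.13 and -1.73) and the GTPase gene Rac1 (-1.25 and -1.14), whose exons overlap those of Daglb in GENCODE M21 and whose count is thus uncertain. Called lower in TEBs and not in ducts, with no call for the interaction, were Dlg2 (-6.88, with 3 counts in the 3 basal TEBs together), Dlg5 (-0.85), the Scribble relative Lrrc1 (-1.01) and the Crumbs scaffold Patj (-0.57). In ducts, where none was called, the values of Dlg5 (-0.37) and Lrrc1 (-0.82) lay the same way and those of Dlg2 (2.25) and Patj (0.30) the other way.

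The shares of family members in the summed level per length were then set side by side, as a description with no test. Within the PAR6 family, Pard6b held 72.7% ± 16.0 (SD, n = 2) of the summed RPKM in luminal ducts and 65.2% ± 4.03 (n = 3) in luminal TEBs, but 7.62% ± 2.64 in basal ducts and 1.69% ± 2.20 in basal TEBs (n = 3 each). Pard6g held 83.4% ± 0.546 and 85.5% ± 4.27 in basal ducts and TEBs, and 8.92% ± 12.6 and 6.79% ± 1.82 in luminal ones. Pard6g was at 56.0 to 85.3 CPM in basal libraries and 0 to 5.90 CPM in luminal ones. The summed PAR6 level was 28.2 ± 6.13 and 26.0 ± 3.61 RPKM in basal ducts and TEBs and 12.2 ± 2.35 and 13.3 ± 0.832 RPKM in luminal ones. Within the NUMB pair the share of Numb was 44.6% ± 15.2 and 54.1% ± 6.97 in basal ducts and TEBs and 82.0% ± 13.7 and 90.0% ± 2.21 in luminal ones, while the summed level stayed between 23.6 ± 3.90 and 34.0 ± 1.37 RPKM over the 4 groups. Within the LGL pair the share of Llgl2 was 11.2% ± 2.81 and 14.2% ± 5.39 in basal cells and 44.7% ± 3.76 and 44.9% ± 0.754 in luminal ones. Prkci held most of the aPKC level in every group, with Prkcz at 4.42% ± 0.987 and 6.66% ± 2.00 in basal cells and 12.1% ± 7.67 and 14.4% ± 1.30 in luminal ones. In the Crumbs family, where Crb1 was not tested, the summed basal level was 0.838 ± 0.566 RPKM in ducts and 0.566 ± 0.525 RPKM in TEBs.

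**Figure D4:**
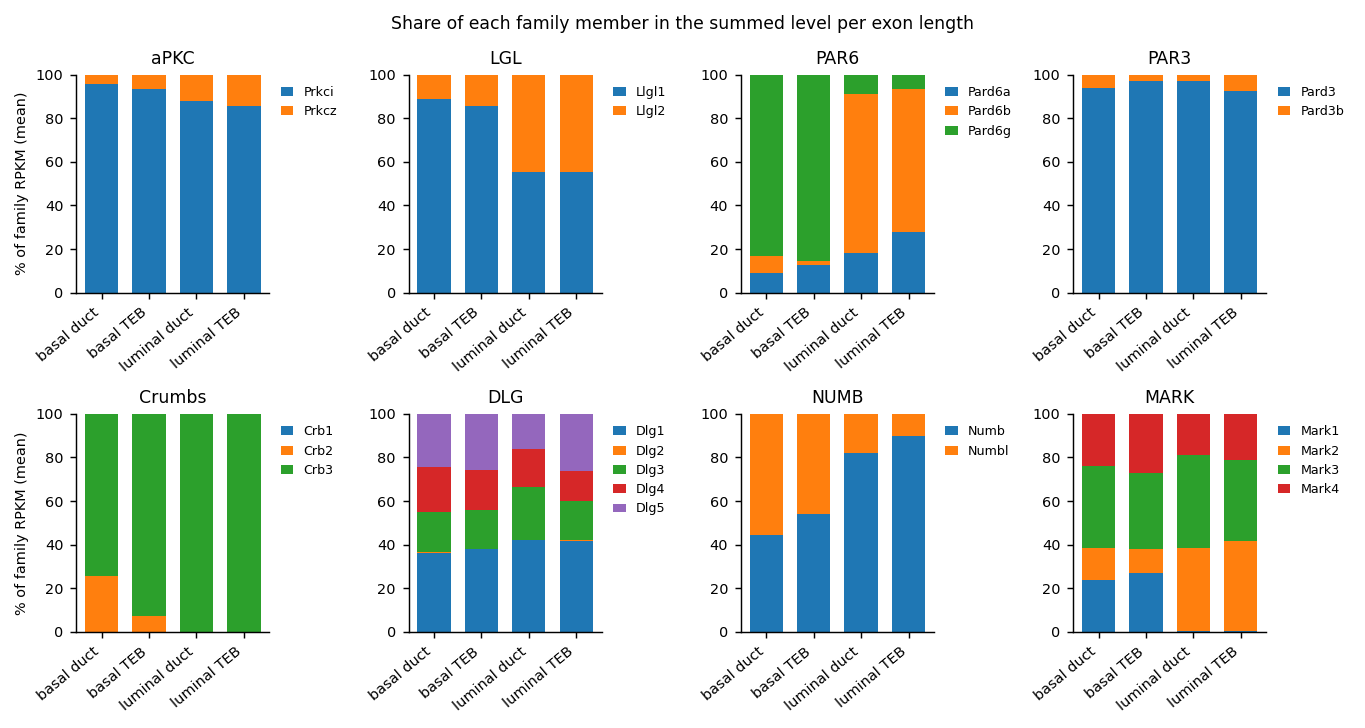
Mean share of each gene (coloured segments, y axis in % of the summed RPKM of its family) in the 4 groups (x axis) for 8 polarity gene families, over 3 libraries per group and 2 in luminal ducts, and for Crumbs over 2 in basal TEBs, since basal TEB 1 had no Crumbs count. In the PAR6 panel Pard6g fills 83.4% and 85.5% of the basal bars and Pard6b 72.7% and 65.2% of the luminal bars, and the basal Crumbs bars rest on summed levels under 1 RPKM.

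Within groups the members spread unequally. The pooled SD of log2 CPM was 0.15 for Dlg1 and Llgl1, 0.17 for Scrib, 0.19 for Pard3 and 0.21 for Prkci, below the all-gene median of 0.58. These members had mean levels of 6.32 to 6.96 log2 CPM, against a median of 3.60 over all genes tested. They were not set beside genes of like level. The pooled SD was 0.39 for Llgl2, 0.40 for Numb and 0.50 for Prkcz, and reached 1.13 for Pard6b and 1.75 for Crb3, the members with the fewest counts in basal libraries. For the 4 members whose group means spanned at least 2 log2 units, the genes with the most alike pattern over the 11 libraries were ranked by the root mean square difference of centred log2 CPM among 7706 or 7707 candidates. These were Parp9 (0.28), Dnpep (0.30) and Sms-ps (0.34) for Llgl2, Tpi1 (0.32), Aktip (0.34) and Mettl26 (0.34) for Prkcz, Atp2c2 (0.76), S100a6 (0.79) and Gcnt2 (0.80) for Pard6b, and Gipc2 (0.83), Ly6d (0.87) and Wfdc2 (1.10) for Crb3. Among these candidates, all at a mean of at least 4 log2 CPM, no gene came as close to Pard6b or Crb3 as the 3 named for Llgl2 and for Prkcz. The means of Crb3 (1.88), Pard6b (2.92) and Prkcz (3.49) lay below that limit, so genes of their level were not compared.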

How the data were processed

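RNA-seq was done by the authors with an unstranded kit on sorted cells, paired-end reads were aligned to mm10 with Rsubread and counted per Entrez gene over its inbuilt RefSeq annotation (featureCounts, per the submitters' processing notes), and the deposited values are whole read counts per gene, not normalized. The 11 tables of single libraries equalled the table of the series, 0 columns were left unused, and 25275 of 27179 identifiers (93.0%) had a symbol. Counts were analysed in R 4.3.3 with edgeR 4.0.16: filterByExpr (minimum count 10, minimum total 15) kept 17370 genes and at least 99.965% of the counts of each library, sizes were scaled by TMM, and 1 quasi-likelihood model over 4 groups tested 5 contrasts with Benjamini-Hochberg adjustment over all genes at 0.05. The common biological coefficient of variation was 0.704. The SE is the fitted change over the root of its F statistic, and intervals use the fit's degrees of freedom. Log2 CPM used a prior count of 2. RPKM used the deposited exon lengths, and overlaps between genes are from GENCODE M21, not the annotation counted. Scripts were tested on simulated data.

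The members and lists were chosen with earlier results of these data known. Named are the 10 members, genes of a list of 29 that passed in any contrast, and, for members whose group means span 2 log2 units, the 3 most alike genes above a mean of 4 log2 CPM that have no predicted name. Promoter motifs were chosen after the levels were known. Alternatives were DESeq2 1.42.0 size factors and test, upper-quartile and no scaling, no filter, limma 3.58.1 voom with and without weights, a replicate block, mitochondrial genes removed, only the groups compared, 2 libraries left out together and each library left out in turn. P-values of the main fit rest on the spread between libraries within groups, estimated over the 4 groups together. Whether libraries of different groups came from the same pools of mice is not known here.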

Additional observations from a re-analysis of the deposited data

Results flagged for a closer look

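Dlg2, a DLG paralog of the wider list, lay in opposite directions between TEBs and ducts in the 2 lineages. It was at 2.11, 1.60 and 2.51 CPM in basal ducts and at 0, 0.0632 (3 counts) and 0 CPM in basal TEBs, and at 0.819 and 0.0411 CPM in luminal ducts and 2.31, 2.84 and 4.72 CPM in luminal TEBs. All 3 basal TEBs lay below all 3 basal ducts and all 3 luminal TEBs above both luminal ducts. The difference between the changes was -9.13 on the log2 scale, and its test did not pass (edgeR's quasi-likelihood interaction, adjusted p = 0.140). With 3 counts in all 3 basal TEBs together and 1 count in luminal duct 3, the fitted value depends on the prior count of the fit. That prior was edgeR's default and is separate from the 2 used for log2 CPM. Groups of 2 or 3 libraries were not checked for outlying libraries.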

How the results depend on the processing

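Counts of called members moved by over 1.5 times only when 1 library was left out: over such fits they ran from 4 to 8 for basal against luminal ducts (4 without luminal duct 1), 7 to 9 in TEBs, 0 to 1 for basal TEB against duct and for the interaction (1, Pard6b, without basal TEB 2), and 0 to 0 for luminal TEB against duct. Other settings gave 5 in ducts with no composition normalization (1713 higher and 1049 lower over all genes) to 9 in DESeq2's test (2989 and 2133). In TEBs they gave 7 with no composition normalization (1380 and 2332) to 9, as in DESeq2's test (2902 and 2489). Reversed values were all uncalled. For basal TEB against duct, Pard3 and Dlg1 were -0.022 with DESeq2 size factors, -0.021 and -0.022 in its test, -0.020 and -0.018 without mitochondrial genes and both -0.12 with no composition normalization, which gave Prkcz -0.056 and Scrib -0.10. Quality weights gave Scrib -0.049 and Crb3 0.16, and leaving out basal TEB 1 and luminal duct 3 together gave them -0.062 and 0.063 and Llgl2 -0.0075. For luminal TEB against duct, Numb was -0.033 with DESeq2 size factors and its test, -0.020 with upper-quartile scaling, -0.044 with weights and -0.15 without the 2 libraries, Pard6b was 0.37 with no composition normalization, 0.10 and 0.14 with voom without and with weights and 0.44 without the 2 libraries, Crb3 was 0.16 and Dlg1 0.14 with no composition normalization, and Prkcz was -0.063 without the 2 libraries. Llgl1 in TEBs, basal against luminal, was -0.31 and Dlg1 in the interaction -0.26 with no composition normalization. In the interaction, Crb3 was 0.36 with weights and 0.17, Prkcz 0.21 and Numb 0.091 without the 2 libraries. The cause was not tested. Leaving out each library gave, for basal TEB against duct, -0.11 to 0.10 (Pard3), -0.13 to 0.10 (Dlg1), -0.45 to 0.073 (Numb), -1.19 to 0.23 (Crb3), -0.085 to 0.20 (Prkcz), -0.14 to 0.082 (Llgl1), -0.0081 to 0.63 (Llgl2) and -0.063 to 0.21 (Scrib). For luminal TEB against duct it gave -0.43 to 0.42 (Pard6b), -0.080 to 1.64 (Prkcz) and -0.17 to 0.26 (Numb), for basal against luminal -0.015 to 0.26 (Prkci, ducts) and -0.0095 to 0.17 (Llgl1, TEBs), and for the interaction -0.48 to 0.061 (Numb), -0.96 to 0.47 (Crb3), -0.59 to 0.080 (Llgl2), -0.24 to 0.063 (Scrib) and -1.54 to 0.18 (Prkcz). No composition normalization moved the median of all genes from -0.03 to -0.16 (basal TEB against duct), 0.04 to 0.42 (luminal), 0.08 to 0.19 and 0.04 to -0.35 (basal against luminal in ducts and TEBs). With the replicate number as a block the counts were 6 in ducts (1894 higher and 1399 lower over all genes), where Prkcz was lost (-1.42, adjusted p = 0.0881). In TEBs the block gave 9 (2040 and 1990), and Crb3 in the interaction was 0.053. Same-numbered libraries correlated at -0.068 to 0.163 (median 0.069, 15 pairs) and differently numbered ones at -0.163 to 0.137 (median -0.026), and 7 of 11 correlated best with their own number. Not every same-numbered pair exceeded 0.1, and the main fit did not pair the libraries by number. These correlations cannot decide whether the libraries are paired. They are of deviations from group means, so the values of the 2 luminal ducts mirror each other (0.089 and -0.089 with basal duct 1). Whether the numbers mark shared pools is not given in the sources used here. The 5 ratios kept their direction and an adjusted p of at most 0.025 throughout. Where luminal ducts were left with 1 library, it was assumed to vary like the other groups.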
